A study of Homo sapiens with 6 samples.

Results

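Metallothioneins are small, cysteine-rich proteins that bind zinc and copper inside the cell and also capture toxic metals such as cadmium. Their genes lie together on chromosome 16, and their transcription is switched on by MTF1, a zinc finger factor that senses free zinc and binds metal-responsive elements (MREs) in their promoters. Glucocorticoids and oxidants are further known inducers of these genes. The rows studied here were MT2A, MT1E, MT1F and MT1X, which encode metallothioneins, together with MTF1. They were chosen by gene name, making 5 of the 17222 gene rows of the raw count table, and the mitochondrial genes, whose names also begin with MT, were left out.

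The libraries came from H226, a human lung squamous carcinoma cell line, transiently transfected with an antisense oligonucleotide (ASO) and collected after 48 h. The ASO_LINC condition received ASO_LINC#3, 1 oligonucleotide directed against the long non-coding RNA LINC00565 (SWINGN), and the ASO_CTRL condition received a control oligonucleotide. All libraries therefore shared the transfection, each condition had 3 libraries, and the knockdown rested on a single targeting oligonucleotide. The study's general statement on sample size describes its experiments as biological replicates, while the labels of these libraries do not say how the samples of a condition were separated, and p-values measure the spread between these libraries. The level of the targeted RNA was not analysed here.

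Reads on gene rows ranged from 3686828 to 10546786 per library, with the lowest total in ASO_LINC replicate 3. That library also stood farthest from the other ASO_LINC libraries, with a chi-square per degree of freedom of 14.4 and 15.6 against 2.63 between ASO_LINC replicates 1 and 2. The value between ASO_CTRL pairs ran from 7.45 to 13.1, so no pair of libraries agreed within counting noise. The simple epithelial and mesothelial markers KRT7, KRT8, KRT18, KRT19, MSLN, CALB2 and UPK3B were all counted, with a summed level of 12366 to 13423 CPM (reads of a gene relative to all reads on genes, scaled for library composition) in ASO_CTRL and 7271 to 12727 in ASO_LINC. Within this sum CALB2 fell from 601 ± 91.7 CPM in ASO_CTRL to 154 ± 47.6 in ASO_LINC (mean ± SD, n = 3). UPK3B fell from 49.4 ± 4.82 to 26.4 ± 7.86 CPM, and the other markers of the sum overlapped between conditions. Of 7 squamous markers KRT5 and KRT6A were counted, at a summed 94.4 to 117 CPM in ASO_CTRL and 63.5 to 78.9 in ASO_LINC. That sum was nearly all KRT5. KRT6A had 0, 0 and 1 counts in ASO_CTRL and 14, 5 and 4 in ASO_LINC, higher there but too few to be tested. TP63, KRT14, DSG3, PKP1 and SOX2 were not analysed here. COL1A1 was the only counted gene of 6 fibroblast markers, at 251 to 367 CPM in ASO_CTRL and 117 to 135 in ASO_LINC, and CD68 the only one of 3 leukocyte markers, at 1.08 to 1.89 and 2.79 to 6.51 CPM. The part of these marker differences in the results on metallothioneins was not tested.

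The 4 metallothionein genes have closely similar coding parts, shown here because reads of one gene can resemble those of another. Each coding sequence has 186 bases, and any pair shared between 88.7% and 92.5% of them. The sequences come from the GRCh37 reference and its transcripts, all on the plus strand, with MT2A at chr16:56642496-56643409, MT1E at chr16:56659387-56661024, MT1F at chr16:56691643-56694610 and MT1X at chr16:56716382-56718108. Capitals mark the bases that differ from MT2A, which number 14 in MT1E, 16 in MT1F and 14 in MT1X.
MT2A: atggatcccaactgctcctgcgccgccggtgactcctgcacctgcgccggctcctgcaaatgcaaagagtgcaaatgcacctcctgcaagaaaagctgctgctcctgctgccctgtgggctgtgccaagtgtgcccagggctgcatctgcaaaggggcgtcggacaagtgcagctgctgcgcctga
MT1E: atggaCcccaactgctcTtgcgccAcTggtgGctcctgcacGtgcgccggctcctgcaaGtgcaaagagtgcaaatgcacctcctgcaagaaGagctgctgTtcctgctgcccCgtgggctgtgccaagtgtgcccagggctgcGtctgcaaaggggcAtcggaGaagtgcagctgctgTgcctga
MT1F: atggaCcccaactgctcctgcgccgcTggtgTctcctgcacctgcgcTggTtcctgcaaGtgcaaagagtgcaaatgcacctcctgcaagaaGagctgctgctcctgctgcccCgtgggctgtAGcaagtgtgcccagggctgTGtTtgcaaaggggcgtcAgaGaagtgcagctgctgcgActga
MT1X: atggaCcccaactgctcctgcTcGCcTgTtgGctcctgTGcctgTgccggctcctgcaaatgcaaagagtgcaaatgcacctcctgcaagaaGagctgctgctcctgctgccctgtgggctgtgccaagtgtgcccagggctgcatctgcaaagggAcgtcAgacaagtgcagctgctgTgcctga

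No window of 75 bases, the read length, was identical between any pair of the 4 transcripts. Only exact matches were counted, and in MT1X most bases that differ from MT2A lie near the start of the coding part. A read of one gene can therefore differ from another gene by few bases. How well reads of the 4 genes were told apart was not tested. Together the genes spanned 75613 bases. MTF1 lies on another chromosome, at chr1:38275246-38325264 on the minus strand of GRCh37. MT1X overlaps an annotated long non-coding RNA on the same strand, and MTF1 overlaps the annotated gene AL929472.1 on its own strand and a processed pseudogene on the other. How the counting treated such overlaps is not given in the sources used here.

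Knockdown libraries held more metallothionein RNA than control libraries. MT2A rose from 1378 ± 141 to 4520 ± 338 CPM and MT1X from 6.79 ± 1.56 to 21.8 ± 1.80 CPM (mean ± SD, n = 3 per condition), about the same fold in genes of very different level. MT1E, MT1F and MTF1 had higher means in ASO_LINC but did not pass the test. Calls were made with edgeR (quasi-likelihood F-test, p adjusted after Benjamini-Hochberg across every gene tested) and needed an adjusted p under 0.01 together with a change of more than 0.5 on the log2 scale. By that rule 2 of the 5 genes were called, both higher, where 7.54% of all 14660 genes tested were called, 4.91% higher and 2.63% lower. In bulk RNA, more cells that express a gene and more RNA per expressing cell cannot be told apart.

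**Figure D1:**
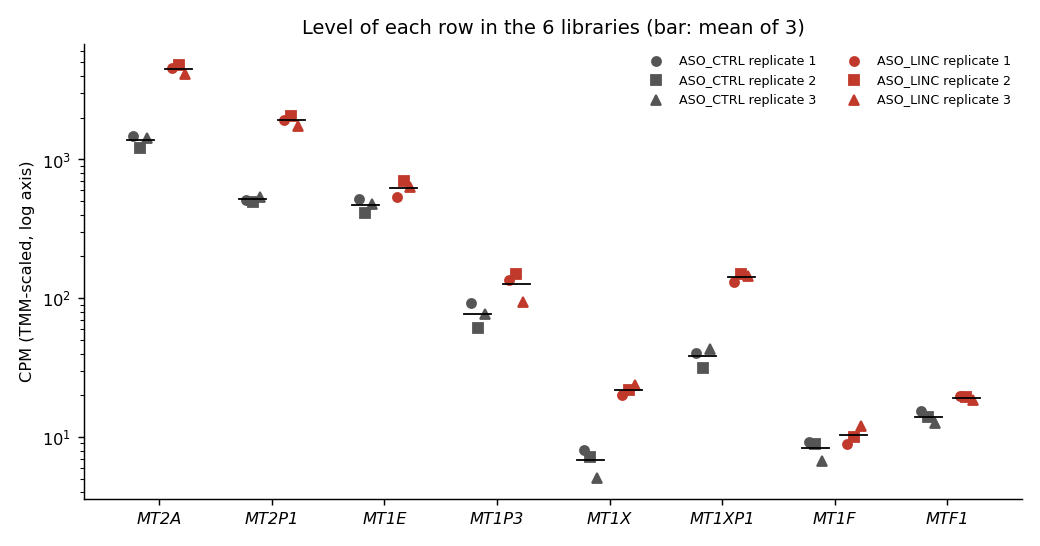
CPM (vertical log axis) of the 5 genes and of the pseudogenes MT2P1, MT1P3 and MT1XP1 in each library, grey for ASO_CTRL and red for ASO_LINC, with the symbol giving the replicate number and the bar the mean of 3 libraries. MT2A, MT2P1, MT1X and MT1XP1 show a wide gap between conditions, while the conditions overlap for MT1F.

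MT2A is a metallothionein that most human cells express and induce on metal exposure. It had 1486, 1219 and 1429 CPM in ASO_CTRL replicates 1 to 3 and 4591, 4818 and 4152 CPM in ASO_LINC replicates 1 to 3. The lowest ASO_LINC library thus lay far above the highest ASO_CTRL library. The log2 fold change was 1.71 ± 0.12 (SE), a 3.28-fold rise, with an adjusted p of 1.97e-05 in edgeR's test. Against the ASO_CTRL mean, the 3 ASO_LINC libraries were higher by 1.74, 1.81 and 1.60 on the log2 scale. By mean CPM, MT2A moved from position 90 to position 8 among the 17222 gene rows.

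MT1X had far fewer reads. It was counted 60, 42 and 53 times in ASO_CTRL and 136, 128 and 87 times in ASO_LINC, or 8.08, 7.23 and 5.06 CPM against 19.99, 21.9 and 23.6 CPM. All ASO_LINC libraries lay above all ASO_CTRL libraries, also in raw counts and in spite of the low depth of ASO_LINC replicate 3. The log2 fold change was 1.70 ± 0.21 (SE), 3.24-fold, with an adjusted p of 0.000473 in edgeR's test. The larger error goes with the smaller counts. Its position among gene rows by mean CPM moved from 10498 to 6409. How many reads of the MT1X row came from MT2A, which had far more reads, was not tested.

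MT1E was the second most abundant metallothionein and changed less. Its level was 522, 408 and 478 CPM in ASO_CTRL and 538, 697 and 630 CPM in ASO_LINC. The conditions did not overlap, but the highest control library and the lowest knockdown library lay close together. The log2 fold change of 0.40 ± 0.14 (SE) had an adjusted p of 0.0709 in edgeR's test and was not called.

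MT1F, a minor metallothionein in these cells, had 9.29, 8.95 and 6.68 CPM in ASO_CTRL and 8.97, 10.1 and 11.9 CPM in ASO_LINC. The conditions overlapped, and the counts behind these values were 44 to 70 per library. The log2 fold change was 0.31 ± 0.22 (SE), with an adjusted p of 0.350 in edgeR's test.

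MTF1, the metal-sensing transcription factor, had 15.4, 13.9 and 12.6 CPM in ASO_CTRL and 19.7, 19.3 and 18.4 CPM in ASO_LINC. The libraries of the conditions did not overlap, and those of ASO_LINC lay close together. The log2 fold change of 0.46 ± 0.16 (SE) had an adjusted p of 0.0727 in edgeR's test and was not called. For 4 of the 5 genes all ASO_LINC libraries lay above all ASO_CTRL libraries, as they did for 18.7% of all genes tested. Counting both directions, 36.1% of the genes tested had libraries that did not overlap between conditions.

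Leaving out ASO_LINC replicate 3 gave log2 fold changes of 1.77 for MT2A, 1.65 for MT1X, 0.39 for MT1E and 0.49 for MTF1. Whichever library was left out, MT2A stayed between 1.64 and 1.77 and MT1X between 1.498 and 1.85, and both remained called. The range was 0.32 to 0.50 for MT1E, 0.16 to 0.41 for MT1F and 0.38 to 0.54 for MTF1, none of them called.

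**Figure D2:**
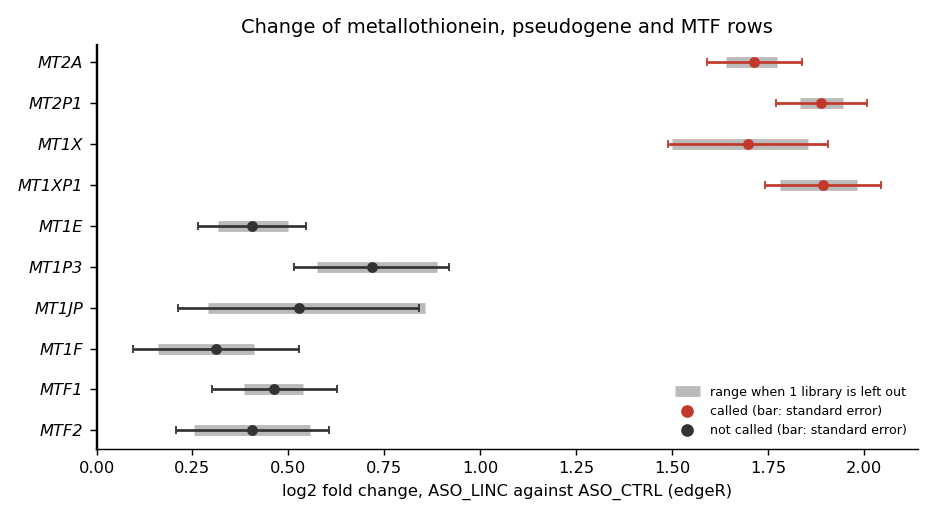
Log2 fold change, ASO_LINC against ASO_CTRL, of metallothionein, pseudogene and MTF rows, with the standard error as a thin bar, the range over the 6 fits that each leave out 1 library as a grey bar, and called rows in red. MT2A and MT1X and their pseudogenes lie near or above 1.7, and the other rows shown lie below 0.8.

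Levels of different genes were compared per length, as CPM divided by the length of the annotated exons in kilobases (RPKM). MT2A stood first at 1508 ± 154 RPKM in ASO_CTRL and 4945 ± 370 RPKM in ASO_LINC. MT1E followed at 446 ± 54.7 and 591 ± 75.4 RPKM. These were separated from the other genes by a wide gap in both conditions. By their own rows, without reads on pseudogene rows, MT1F and MT1X did not differ beyond their spread in ASO_CTRL, with 4.49 ± 0.77 and 3.93 ± 0.90 RPKM. In ASO_LINC MT1X stood above MT1F, with 12.6 ± 1.04 against 5.58 ± 0.81 RPKM. MTF1 was the lowest, at 1.75 ± 0.17 and 2.40 ± 0.08 RPKM. With the length of the coding transcript instead, the levels rose to 3436 and 11272 RPKM for MT2A and to 16.8 and 54.0 RPKM for MT1X, and the order was kept in both conditions.

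The summed reads of the 4 metallothionein genes do not depend on how reads were divided among these 4. They came to 2026, 1643 and 1919 CPM in ASO_CTRL and 5158, 5546 and 4817 CPM in ASO_LINC. The difference of the means was 1.47 on the log2 scale, or 2.78-fold, described with no test. In terms of all reads on genes, the share of the family went from 0.166% to 0.196% in control libraries to 0.482% to 0.558% in knockdown libraries.

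MT2A had a larger share of that sum in every ASO_LINC library than in any ASO_CTRL library. MT2A made up 73.4%, 74.2% and 74.5% of the summed reads in ASO_CTRL and 89.0%, 86.9% and 86.2% in ASO_LINC. MT1E took 25.8%, 24.8% and 24.9% in ASO_CTRL and 10.4%, 12.6% and 13.1% in ASO_LINC, so its share was lower although its own level was not. MT1F went from 0.45% ± 0.10 to 0.20% ± 0.04, and MT1X from 0.37% ± 0.09 to 0.42% ± 0.06 with overlapping conditions (SD, n = 3).

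**Figure D3:**
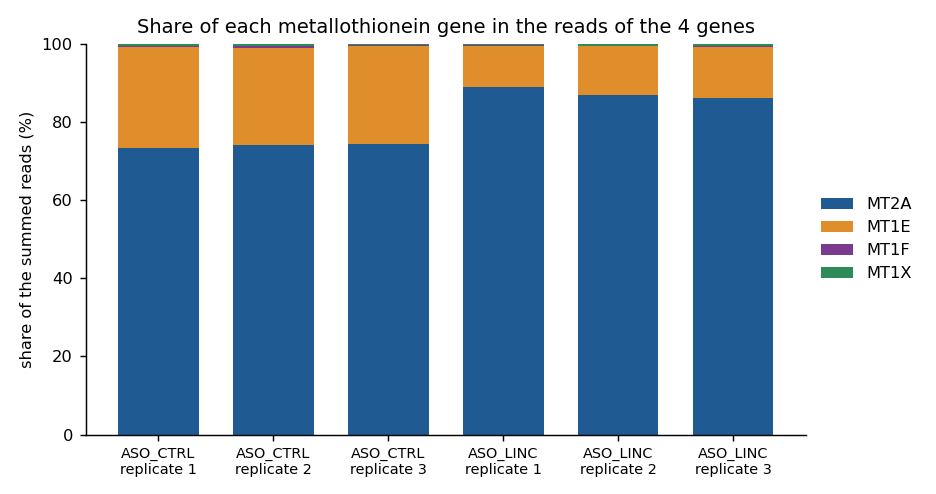
Share (%) of MT2A, MT1E, MT1F and MT1X in the summed reads of the 4 genes, 1 bar per library. The MT2A share lies between 73.4% and 74.5% in the ASO_CTRL libraries and between 86.2% and 89.0% in the ASO_LINC libraries; MT1F and MT1X are each below 0.6% in every library.

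Ratios between the genes within a library were compared to ask whether the genes changed by different amounts. The ratio of MT2A to MT1E reads was 2.85, 2.99 and 2.99 in ASO_CTRL and 8.52, 6.92 and 6.59 in ASO_LINC. It was 2.48-fold higher in ASO_LINC, a log2 difference of 1.31 ± 0.12 (SE). The ratio of MT1X to MT1E differed by 1.31 ± 0.24, that of MT2A to MT1F by 1.40 ± 0.26 and that of MT1X to MT1F by 1.39 ± 0.08, all without overlap between conditions. For these 4 ratios the exact two-sided permutation test gave p = 0.1, the smallest value that 3 against 3 libraries allow, and 0.15 after adjustment over the 6 pairs, so none passed the test. The ratios within the pair MT2A and MT1X (0.01 ± 0.26, exact permutation p = 1) and within the pair MT1E and MT1F (0.08 ± 0.22, exact permutation p = 0.8) overlapped between conditions.

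Processed pseudogenes, copies of metallothionein transcripts inserted elsewhere in the genome, had rows of their own in the table. MT2P1 lies at chr4:69242041-69242223 on the plus strand, MT1XP1 at chr1:16567708-16567893 on the minus strand and MT1P3 at chr20:33805812-33805988 on the plus strand of GRCh37. They are shown because their rows moved with those of the genes they resemble. Capitals mark the bases that differ from the closest gene, which are 5 for MT2P1 against MT2A, 7 for MT1XP1 against MT1X and 6 for MT1P3 against MT1E. Bases that a copy lacks are neither marked nor counted. MT2P1 has 183 bases and MT1P3 177, against 186 in the coding parts of MT2A and MT1E.
MT2P1: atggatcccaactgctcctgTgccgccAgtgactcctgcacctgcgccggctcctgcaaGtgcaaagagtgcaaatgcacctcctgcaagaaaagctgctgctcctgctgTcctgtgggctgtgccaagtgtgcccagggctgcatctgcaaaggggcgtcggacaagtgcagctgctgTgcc
MT1XP1: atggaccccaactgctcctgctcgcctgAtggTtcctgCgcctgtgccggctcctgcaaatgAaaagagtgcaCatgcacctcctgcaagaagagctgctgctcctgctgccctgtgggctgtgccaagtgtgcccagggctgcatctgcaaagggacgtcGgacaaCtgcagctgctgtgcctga
MT1P3: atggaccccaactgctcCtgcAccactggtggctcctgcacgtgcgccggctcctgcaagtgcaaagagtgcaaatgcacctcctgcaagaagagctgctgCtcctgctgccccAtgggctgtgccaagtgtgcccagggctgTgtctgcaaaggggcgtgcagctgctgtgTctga

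MT2P1 was counted at 514, 492 and 541 CPM in ASO_CTRL and 1916, 2054 and 1755 CPM in ASO_LINC. Its log2 fold change of 1.89 ± 0.12 (SE) was called, with an adjusted p of 7.53e-06 in edgeR's test. MT1XP1 had 40.5, 31.5 and 42.8 CPM in ASO_CTRL and 132, 151 and 146 CPM in ASO_LINC. It was called at 1.89 ± 0.15 (SE), with an adjusted p of 3.30e-05. MT1P3 had 92.8, 60.9 and 77.7 CPM in ASO_CTRL and 136, 151 and 93.5 CPM in ASO_LINC. It was not called, at 0.72 ± 0.20 (SE) with an adjusted p of 0.0325, but was called at 0.89 without ASO_LINC replicate 3.

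The reads of each pseudogene were also set against those of its closest gene. MT2P1 had 0.346 to 0.404 reads per MT2A read in ASO_CTRL and 0.417 to 0.426 in ASO_LINC. MT1XP1 had 4.36 to 8.47 reads per MT1X read in ASO_CTRL and 6.18 to 6.88 in ASO_LINC, so the pseudogene row held more reads than the gene in every library. MT1P3 had 0.149 to 0.178 reads per MT1E read in ASO_CTRL and 0.149 to 0.252 in ASO_LINC. Of the windows of 75 bases within each copy, 0 of 109 in MT2P1, 13 of 112 in MT1XP1 and 5 of 103 in MT1P3 also occurred in a transcript of the closest gene. The counting program and its treatment of reads that match several places are not given in the sources used here. The division of reads among the metallothionein genes, and between them and their copies, is therefore uncertain. With the reads of the 4 processed pseudogenes added to the closest gene, the log2 fold changes were 1.76 for MT2A, 1.86 for MT1X, 0.45 for MT1E and 0.31 for MT1F, with the same calls. MT1X then had 49.7, 38.9 and 48.6 CPM in ASO_CTRL and 153, 175 and 172 CPM in ASO_LINC. MT1F had 9.29, 8.95 and 6.68 CPM in ASO_CTRL in that setting. The level of MT1X, also beside MT1F, thus depends on the division of reads.

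The remaining rows of the family were few in reads. MT1P1, a pseudogene that lies within FANCC on the same strand, had a log2 fold change of 1.57 ± 0.48 (SE, adjusted p = 0.0443), and MT1HL1, a metallothionein-like gene, one of 1.64 ± 0.48 (SE, adjusted p = 0.0387) in edgeR's test, neither of them called. The non-coding row MT1JP had 0.53 ± 0.31 (SE, adjusted p = 0.278) and overlapping conditions. MT1G was counted 2, 5 and 8 times in ASO_CTRL and 8, 14 and 16 times in ASO_LINC, too few to be tested. MTF2, a Polycomb-associated protein that shares only its name with the metal sensor, had 0.41 ± 0.20 (SE, adjusted p = 0.187).

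Promoters of the 2 called genes are printed to show where their letters match the MRE core. They cover 250 bases before to 50 bases after the start and come from RefSeq (GRCh38.p14), MT2A at chr16:56608334-56608633 and MT1X at chr16:56682220-56682519, both on the plus strand. Capitals mark the MRE core, searched as TGCACNC and TGCGCNC on both strands.
MT2A: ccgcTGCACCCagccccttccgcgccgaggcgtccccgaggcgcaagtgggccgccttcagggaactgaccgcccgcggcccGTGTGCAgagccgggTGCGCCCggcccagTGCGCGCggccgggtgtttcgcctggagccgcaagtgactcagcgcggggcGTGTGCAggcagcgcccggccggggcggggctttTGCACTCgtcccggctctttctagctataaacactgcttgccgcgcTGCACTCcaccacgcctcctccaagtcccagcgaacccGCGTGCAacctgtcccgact
MT1X: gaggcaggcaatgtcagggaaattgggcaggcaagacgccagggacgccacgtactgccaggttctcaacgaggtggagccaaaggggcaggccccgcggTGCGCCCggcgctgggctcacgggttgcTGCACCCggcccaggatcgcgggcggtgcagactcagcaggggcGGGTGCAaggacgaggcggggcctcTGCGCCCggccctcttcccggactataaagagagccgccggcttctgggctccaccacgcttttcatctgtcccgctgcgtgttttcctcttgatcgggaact

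The MT2A window held 8 such cores and the MT1X window 4, none of them overlapping. Among all 35116 promoter windows in the table, 29.6% held at least 1 core, 0.601% at least 4 and 0.0199% at least 8. The MTF1 window held none, which says only that these letters do not occur in it. The windows of MT1E and MT1F were not analysed here. A match is a description of the sequence and not evidence of binding.

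Zinc transporters, which move the metal that MTF1 senses, were read against the 7.54% of all genes tested that were called. Of 14 zinc importers of the SLC39 family, 11 were tested and 1 was called higher, with a median log2 fold change of -0.23 beside a median of -0.0027 over all genes tested. The called gene was SLC39A14, an importer of zinc, iron and manganese, with 122, 104 and 133 CPM in ASO_CTRL and 198, 208 and 165 CPM in ASO_LINC (log2 fold change 0.67 ± 0.14, adjusted p = 0.00987 in edgeR's test). It was close to the threshold, and only the fit without ASO_LINC replicate 3 kept the call among those that left out 1 library, at values from 0.59 to 0.76 in all 6. The most highly counted importer, SLC39A1, had -0.23 ± 0.13 (adjusted p = 0.244), and SLC39A10, a gene that MTF1 is known to repress, -0.32 ± 0.30 (adjusted p = 0.497).

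Of 10 zinc exporters of the SLC30 family 6 were tested. By edgeR, DESeq2 or limma-voom 0 were called, where edgeR called 7.54% of all genes tested. Their median log2 fold change was 0.23. In edgeR's test 2 of them had an unadjusted p under 0.05, as did 4752 of all 14660 genes tested. SLC30A1, the plasma membrane zinc exporter and a known MTF1 target, had 2.83, 2.58 and 2.48 CPM in ASO_CTRL and 4.70, 7.02 and 6.24 CPM in ASO_LINC. The conditions did not overlap, and the log2 fold change of 1.17 ± 0.26 (SE) had an adjusted p of 0.0115 in edgeR's test. It was called at 1.14 without ASO_LINC replicate 3, and leaving out any other library gave 1.03 to 1.34 with no call. SLC30A5, the most highly counted exporter, had 0.03 ± 0.18 (adjusted p = 0.929).

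Among other genes known to depend on MTF1 (SLC30A1, SLC39A10, SLC40A1, GCLC, PGF and SELENOH), 5 of 6 were tested. By edgeR, DESeq2 or limma-voom 0 were called, where edgeR called 7.54% of all genes tested. Their median log2 fold change was 0.29, with SLC39A10, which MTF1 is known to repress, among them. In edgeR's test 2 of them had an unadjusted p under 0.05, as did 4752 of all 14660 genes tested. Besides SLC30A1, the placental growth factor gene PGF had an adjusted p below 0.05, at 3.50, 1.89 and 2.10 CPM in ASO_CTRL and 4.997, 5.31 and 6.51 CPM in ASO_LINC (log2 fold change 1.14 ± 0.29, adjusted p = 0.0230), and it is named here after its values were seen. The most highly counted, SELENOH (listed as C11orf31), had 0.15 ± 0.20 (adjusted p = 0.650).

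Of 12 copper-handling genes 11 were tested and 1 was called lower, where 7.54% of all genes tested were called and 2.63% were called lower, with a median log2 fold change of -0.15. The called gene was ATP7B, a copper-exporting ATPase, with 27.7, 33.6 and 28.4 CPM in ASO_CTRL and 18.5, 17.5 and 15.2 CPM in ASO_LINC (log2 fold change -0.80 ± 0.16, adjusted p = 0.00742 in edgeR's test). The call was kept without ASO_LINC replicate 3 and lost on leaving out any other library, at -0.86 to -0.70 in all 6 fits. SOD1, the copper and zinc superoxide dismutase, was the most highly counted, with -0.38 ± 0.12 (adjusted p = 0.0572).

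Metallothioneins also respond to oxidants and heavy metals together with other stress genes. In a list of 10 such genes 9 were tested, 2 were called higher and 1 lower, with a median log2 fold change of 0.16. Of all genes tested, 4.91% were called higher and 2.63% lower. The cystine transporter gene SLC7A11 rose from 7.73 ± 1.44 to 22.3 ± 2.41 CPM (SD, n = 3), a log2 fold change of 1.52 ± 0.19 with an adjusted p of 0.000567 in edgeR's test. HMOX1, which encodes the heme-degrading enzyme heme oxygenase, had 11.99, 17.9 and 12.9 CPM in ASO_CTRL and 31.3, 26.9 and 56.1 CPM in ASO_LINC (1.41 ± 0.28, adjusted p = 0.00637). ASO_LINC replicate 3 was the highest of them, and without it the value was 1.05 and still called. HSPA1A, an inducible heat shock protein gene that responds to cadmium, was lower, at 110, 93.8 and 125 CPM against 62.5, 56.0 and 74.0 CPM (-0.78 ± 0.16, adjusted p = 0.00745). On leaving out 1 library the call of HMOX1 was lost without any ASO_CTRL library and without ASO_LINC replicate 1 (1.31 to 1.60), and that of HSPA1A in every case (-0.87 to -0.67) except without ASO_LINC replicate 3. The thioredoxin reductase gene TXNRD1, the most highly counted, had 0.16 ± 0.11 (adjusted p = 0.336).

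Of 10 glucocorticoid-inducible or receptor genes 8 were tested and 2 were called higher, where 4.91% of all genes tested were, with a median log2 fold change of 0.12. ERRFI1, a feedback inhibitor of the EGF receptor, rose from 17.5 ± 0.70 to 85.4 ± 19.5 CPM (SD, n = 3), a log2 fold change of 2.29 ± 0.18 with an adjusted p of 3.30e-05 in edgeR's test. DUSP1, a MAP kinase phosphatase gene and the most highly counted, rose from 332 ± 23.3 to 569 ± 37.6 CPM, by 0.78 ± 0.12 with an adjusted p of 0.00176. The DUSP1 call was lost without ASO_CTRL replicate 2 (0.73) or ASO_CTRL replicate 3 (0.82). The receptor gene NR3C1, with an adjusted p of 0.590 at 0.15 ± 0.17, and the sensitive target FKBP5, with an adjusted p of 0.685 at 0.19 ± 0.28, were not called and are named after their values were seen.

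**Figure D4:**
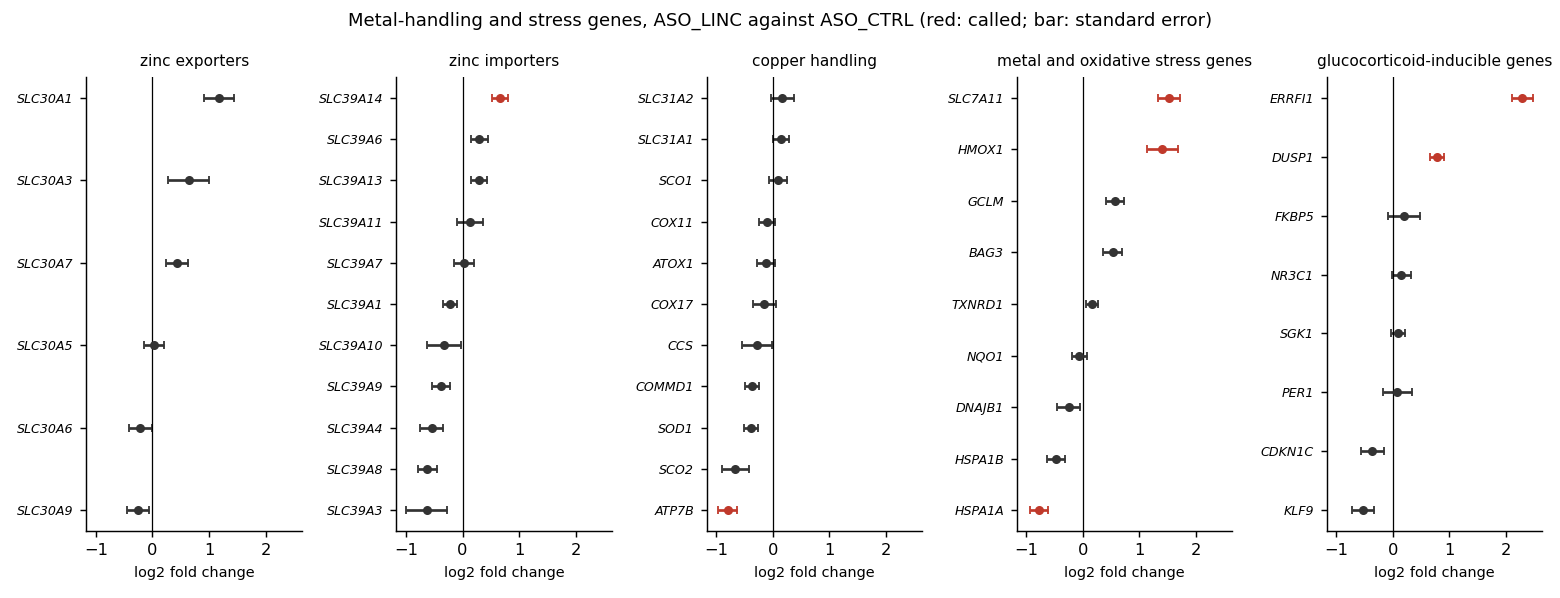
Log2 fold change, ASO_LINC against ASO_CTRL, with its standard error for the tested genes of 5 lists, called genes in red. Calls are 0 of 6 zinc exporters, 1 of 11 zinc importers, 1 of 11 copper-handling genes, 3 of 9 metal and oxidative stress genes and 2 of 8 glucocorticoid-inducible genes. Of all genes tested, 7.54% were called.

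Across the 6 libraries, MT2A, MT1X and MTF1 had levels that ran together, with Pearson's r of log2 CPM of 0.96 for MT1X and MT2A, 0.97 for MT1X and MTF1 and 0.94 for MT2A and MTF1. MT1E and MT1F followed each other less, with r = 0.61. The 6 points are the libraries of both conditions and carry the difference between them, so r is only a description. The gene whose pattern was most like that of MT2A was SERINC3 (r = 0.9998), followed by NFKBIE and IL1B. For MT1X they were LDHAP4 (r = 0.999), DUSP5 and COG1, and for MTF1 RP11-30P6.6 (r = 0.995), RP11-334A14.2 and OSBPL6. For MT1E they were GPR107 (r = 0.985), HIGD1A and ITGAX, and for MT1F PSTPIP2 (r = 0.995), USP35 and ZNF133.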

How the data were processed

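Total RNA of 6 H226 samples was reverse transcribed from oligo-dT and sequenced. The submitters' processing notes name STAR, edgeR and hg19 (GRCh37). The study's methods describe this protocol for BJ fibroblasts, while the labels, the study's results text and its figure legend give H226. The authors deposited 1 table of raw counts per gene with no normalization; the counter, its strand setting and its treatment of multiply mapped reads are not given in the sources used here. The 4 rows that name no gene held 24.8% to 28.1% of the reads and were left out.

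Counts were tested in R 4.3.3 with edgeR 4.0.16 (filterByExpr, TMM scaling, quasi-likelihood F-test, no replicate block), leaving 14660 of 17222 genes. All 5 genes studied passed the filter, each with at least 42 counts in every library. Calls needed a Benjamini-Hochberg adjusted p under 0.01 and a change of more than 0.5 on the log2 scale. CPM used TMM-scaled library sizes. Alternatives used DESeq2 1.42.0, limma 3.58.1, other scalings, filters and thresholds, a correction for GC content and length (known for 87.2% of genes tested), a replicate block and left-out libraries. Adding pseudogene reads and the coding transcript length were chosen after seeing the data. On simulated counts of 14660 genes, calls were made for 59 of 100 genes given a log2 change of 1 and for 98 of 100 given a log2 change of 2. The changed genes were drawn only from those above a floor in mean CPM, so these shares do not cover genes of the lowest levels.

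The genes studied and the lists were chosen with earlier results of these data known. Named were all 5 genes, the called and the most highly counted gene of each list, SLC30A1 and SLC39A10, and the 3 genes with the highest Pearson r with each of the 5; others are marked where named. Gene positions and lengths came from a GRCh37 annotation matched by symbol, and promoters from RefSeq, with 3 of the 5 genes found.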

Additional observations from a re-analysis of the deposited data

How the results depend on the processing

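Over 13 other settings and 6 left-out libraries the 5 genes kept their direction and their calls, with MT2A between 1.69 and 1.83 and MT1X between 1.68 and 1.86 on the log2 scale over the settings. The summed reads differed by 1.45 to 1.56 over 5 settings. Counts of called genes in the lists rested on few genes near the threshold and moved more. Zinc importers had 1 call and 0 with upper-quartile scaling, 10 counts in every library, glmTreat (a test against 0.5) or the replicate block, 2 with the GC and length correction or an adjusted p below 0.05, and 0 to 3 with a library left out. Zinc exporters had 0 calls and 1 with 10 counts in every library or an adjusted p below 0.05, and 0 to 2 with a library left out. Copper handling had 1 call, 0 with glmTreat or the block, and 0 to 2 with a library left out. Other MTF1 targets had 0, then 1 with 10 counts in every library, 2 at 0.05 and 0 to 1 with a library left out. Glucocorticoid genes had 2 calls, 1 with glmTreat and 1 to 2 with a library left out, and stress genes 3, 1 with glmTreat and 1 to 6 with a library left out. All genes called numbered 1106, against 384 with glmTreat, 1728 with the GC and length correction, 2465 at 0.05, and from 359 without ASO_CTRL replicate 3 to 2616 without ASO_LINC replicate 3. SLC30A5, near 0, turned to -0.13 with the GC and length correction, to -0.14 with that and the block, and ranged from -0.12 to 0.21 with a library left out. With a library left out the log2 difference of the MT1E to MT1F ratio ranged from -0.074 to 0.25 and that of MT2A to MT1X from -0.14 to 0.23. The cause of these changes was not tested.

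With the replicate number as a block 656 genes were called, SLC30A5 was at -0.0034, and MT2A and MT1X kept their calls with adjusted p of 7.64e-05 and 0.00133, while SLC39A14, ATP7B and HSPA1A lost theirs. Same-numbered libraries did not deviate together (r = 0.059, -0.149 and -0.180), and differently numbered ones had r from -0.142 to 0.194. No sign was thus seen that the numbers pair the samples, which so few libraries cannot exclude.

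MT1F, MT1X and MTF1 had at most 136 counts per library, with standard errors of 0.16 to 0.22 on the log2 scale.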

Other observations

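Genes on either side of the metallothionein cluster were looked at after seeing the data. Within 500000 bases of the cluster on chromosome 16, 11 further gene rows were tested. Of these, 0 were called by edgeR's test or limma-voom and 1 by DESeq2, where 7.54% of all genes tested were called in edgeR. An unadjusted p under 0.05 in edgeR was found for 4 of the 11, and for 4752 of all 14660 genes tested. The row called by DESeq2 was GNAO1, which encodes a G protein subunit, at 2.05 ± 0.33 CPM in ASO_CTRL and 8.29 ± 6.67 CPM in ASO_LINC (SD, n = 3), with an adjusted p of 0.0252 in edgeR. The other 10 rows had log2 fold changes between -0.65 and 0.29.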
